A study of Homo sapiens with 14 samples.

Results

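Long intergenic noncoding RNA genes that carry a provisional LINC number were followed through pancreatic differentiation of HUES8 cells, an established line of human embryonic stem cells. A gene was included if its symbol was LINC followed only by digits and if its mean RNA level reached at least 2 counts-per-million (CPM, raw counts over the column total) at 1 stage or more. This gave 218 of the 1939 LINC genes in the count table, which held 59050 gene symbols in all. The cells were wild type by their genotype label and were sampled as definitive endoderm (DE), as early pancreatic progenitors (PP1) and as late pancreatic progenitors (PP2). Each stage was measured by RNA sequencing of ribosomal-RNA-depleted total RNA (RNA) and by sequencing of ribosome-bound RNA (Ribo), with 2 DE, 2 PP1 and 3 PP2 libraries per assay. All cells came from 1 line, undifferentiated cells were not analysed here, and no source used here ties the replicates to separate differentiations, so error terms measure only the spread between these libraries.

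Long intergenic noncoding RNAs are transcribed by RNA polymerase II from their own promoters, are usually spliced and polyadenylated, and do not have a long conserved reading frame. Many are made at only one stage or in only one cell type, and many lie beside genes for developmental transcription factors. Some act on the neighbouring gene through their transcription, some act as RNA in the nucleus or cytoplasm, and some are bound by ribosomes, which can read short open reading frames in them. The best known in endoderm is LINC00261, also called DEANR1, which lies beside the gene of the pioneer factor FOXA2. In ribosome profiling, reads are expected over translated frames, but reads over a noncoding gene can also come from other RNA fragments in the preparation.

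The stage labels were checked with marker genes. In RNA, 6 mesendoderm and definitive endoderm markers summed to 5726 and 6049 CPM in DE, against 10.1 to 21.2 CPM in the later libraries. The 6 foregut and hepatic markers, AFP foremost, summed to 8759 and 9315 CPM in PP1. The 6 pancreatic progenitor markers summed to 1032 and 1008 CPM in PP2 replicates 1 and 2, but to 269 CPM in replicate 3, below both PP1 libraries (395 and 414 CPM). PP2 replicate 3 also had the highest foregut and hepatic sum of its stage, 4718 CPM against 1800 and 2084 CPM. RNA PP2 replicate 3 therefore stands apart from its stage. Without it the rule found 216 genes, of which 214 were among the 218, and 14 of those 214 changed the stage of their highest level.

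Other cell types were looked for by their markers too. The 5 mesenchyme markers summed to 54.1 and 64.9 CPM in DE, 318 and 363 CPM in PP1 and 138 to 306 CPM in PP2. COL1A1 and COL3A1 made up most of the PP1 sum, with means of 246 and 84.1 CPM. COL3A1 and ACTA2 stood at 0 in DE, and ACTA2 reached only 2.48 CPM in PP1. PDGFRB and TWIST1 were not higher in PP1, with 5.85 and 2.44 CPM against 8.90 and 2.52 CPM in DE. The 5 neural markers summed to 103 and 110 CPM in DE and to at most 7.14 CPM later; PAX6 made up 102 ± 3.93 CPM (SD, n = 2) of the DE value. The 4 intestinal markers summed to at most 16.3 CPM in DE, 423 and 479 CPM in PP1 and 138 to 172 CPM in PP2. VIL1 and CDX2 made up most of the PP1 sum, with means of 331 and 96.1 CPM, and CDH17 had 24.1 CPM. LGALS4 stood near 0, with means of 0.129 CPM in DE and 0.052 CPM in PP1. In bulk samples, fewer cells of a type and less RNA per cell cannot be told apart. The part of such cells in the LINC values below was not tested.

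Total counts were 15107847 to 21009065 in the RNA libraries and 4710335 to 24186949 in the Ribo libraries. Protein-coding genes took 89.1% to 93.3% of RNA counts but 28.1% to 94.8% of Ribo counts. The mitochondrial ribosomal RNA MT-RNR2 alone took 49.2% to 60.8% of the counts in the 4 Ribo libraries of DE and PP1, and 1.65%, 44.6% and 11.0% in those of PP2 (replicates 1, 2 and 3). Ribo PP2 replicates 1 and 3 therefore differ in composition from the other 5 Ribo libraries, and the counts, medians and fold bounds that rest on them are also given with replicate 2 as the only PP2 library.

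The 218 genes had their highest mean RNA level in DE (79 genes), PP1 (47 genes) or PP2 (92 genes). The level of 2 CPM was reached at all 3 stages by 90 genes, at 2 stages by 56 and at 1 stage by 72. The 72 single-stage genes comprised 38 of the DE-highest, 10 of the PP1-highest and 24 of the PP2-highest genes. Levels at the peak were low for the median gene, at 5.96 CPM (DE-highest), 6.48 CPM (PP1-highest) and 5.07 CPM (PP2-highest). A few genes carried much of the sum: the 6 highest took 35.0% of the members' RNA CPM in DE, 47.5% in PP1 and 33.7% in PP2. LINC00261 alone took 13.4%, 23.5% and 15.7%. Here and below, levels are CPM over library sizes scaled by the trimmed mean of M-values (TMM), except where raw CPM is named.

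A few promoter windows are shown first, because they belong to genes whose stage pattern is described below and hold letters of motifs bound by endoderm factors. Each is RefSeq sequence of build GRCh38.p14, 250 bases before to 50 after the annotated start, 5′ to 3′ on the gene's strand, with matches in capitals. LINC00261 (chr20:22578593-22578892, minus strand; a FOXA and a TATA box match) and LINC02038 (chr3:193843960-193844259, minus strand; a FOXA match) were highest in PP1, and LINC00511 (chr17:72640423-72640722, minus strand; a T-box match, then a FOXA match) and LINC02097 (chr17:72072083-72072382, plus strand; a TATA box match, then a GATA match) in PP2.
LINC00261: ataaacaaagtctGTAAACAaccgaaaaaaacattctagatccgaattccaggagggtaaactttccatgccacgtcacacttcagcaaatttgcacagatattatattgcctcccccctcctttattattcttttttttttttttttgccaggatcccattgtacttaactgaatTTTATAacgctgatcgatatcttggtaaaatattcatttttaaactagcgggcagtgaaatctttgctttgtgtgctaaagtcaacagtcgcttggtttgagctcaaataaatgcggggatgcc
LINC02038: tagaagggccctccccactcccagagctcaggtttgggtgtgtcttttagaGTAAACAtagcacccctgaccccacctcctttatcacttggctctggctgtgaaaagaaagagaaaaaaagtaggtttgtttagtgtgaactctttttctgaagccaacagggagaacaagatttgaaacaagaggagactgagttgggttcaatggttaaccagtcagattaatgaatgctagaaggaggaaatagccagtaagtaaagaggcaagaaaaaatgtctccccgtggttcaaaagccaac
LINC00511: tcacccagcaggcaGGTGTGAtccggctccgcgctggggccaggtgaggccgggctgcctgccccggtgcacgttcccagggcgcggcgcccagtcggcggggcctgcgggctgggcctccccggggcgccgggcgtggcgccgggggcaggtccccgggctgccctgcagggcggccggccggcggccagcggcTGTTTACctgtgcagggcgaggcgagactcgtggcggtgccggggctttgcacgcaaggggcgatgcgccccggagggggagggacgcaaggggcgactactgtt
LINC02097: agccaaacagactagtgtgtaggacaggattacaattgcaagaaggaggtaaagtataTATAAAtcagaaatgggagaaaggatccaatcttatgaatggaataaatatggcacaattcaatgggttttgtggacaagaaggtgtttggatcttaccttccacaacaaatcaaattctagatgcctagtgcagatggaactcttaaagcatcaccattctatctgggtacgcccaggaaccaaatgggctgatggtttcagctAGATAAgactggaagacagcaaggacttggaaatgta

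Such windows were found for 145 of the 218 genes. The FOXA letters TGTTTAC, searched on both strands, were in 9 of the 145 windows (6.21%), against 3.41% of all 27305 RefSeq promoter windows and 4.51% of the 11462 lncRNA windows. By stage of highest RNA, the match was in 5 of 35 windows of PP1-highest genes, 1 of 51 of DE-highest and 3 of 59 of PP2-highest genes. The 5 were LINC00261, LINC02038, LINC01091, LINC00571 and LINC00843; RefSeq now gives the last as the readthrough gene TIMM23B-AGAP6. GATA letters (AGATAA) were in 12.4% of members' windows, above all windows (10.5%) but below lncRNA windows (14.5%). TATA box letters (TATAAA) lay likewise at 14.5%, between 12.0% of all and 15.2% of lncRNA windows. Split by stage of highest RNA (DE, PP1, PP2), GATA letters were in 8 of 51, 1 of 35 and 9 of 59 windows. TATA box letters were in 4 of 51, 6 of 35 and 11 of 59. The motifs that follow were in at most 3 windows of any stage. These stage counts and those for FOXA were not tested. Homeodomain letters (TAATTA) were in 4.83%, against 4.98% of all and 7.25% of lncRNA windows, T-box letters (TCACACC) in 4.14%, against 3.43% and 3.67%, and ONECUT letters (ATCAATC) in 1.38%, against 1.46% and 1.81%. The HNF4 letters CAAAGTCCA were in 0 of 145 windows, against 0.359% of all and 0.419% of lncRNA windows, and the HNF1 motif in 0, against 0.0037% of all windows and 0 lncRNA windows. The HNF1 motif can contain the homeodomain letters, and matches of different motifs can share bases. Median GC content was 55.0% in members' windows, above the 50% of lncRNA windows and below the 58.3% over all windows and the 62.7% over protein-coding windows. A match describes letters in a window and not a bound site.

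Among the genes highest in DE, the 6 with the highest RNA CPM were LINC00458, LINC00665, LINC01356, LINC00205, LINC02614 and LINC02210. LINC00458, known from human pluripotent stem cells, lay on chromosome 13 far from any coding gene measured. Its RNA level was 143 and 130.2 CPM in DE, 3.98 and 2.44 CPM in PP1, and 0, 0.051 and 0.230 CPM in PP2. No library of one stage overlapped those of another, and the log2 difference was -5.42 ± 0.45 (standard error of the fit, here and below) from DE to PP1 and -4.92 ± 0.57 from PP1 to PP2. LINC01356 (chromosome 1) went the same way, with 83.4 and 82.6 CPM in DE, 4.73 and 1.92 CPM in PP1 and 0.184 to 0.255 CPM in PP2. Per kilobase of gene model, which allows genes to be compared, LINC00458 stood at 46.9 CPM per kb and LINC01356 at 26.1 CPM per kb in DE. LINC02614 differed mainly between DE and the later stages, with 36.9 and 40.0 CPM in DE, 4.32 and 4.78 CPM in PP1 and 2.77 to 3.88 CPM in PP2.

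The other 3 genes of this group were present throughout. LINC00665 (chromosome 19) held 114 and 135 CPM in DE, 102 and 94.7 CPM in PP1, and 75.9, 74.1 and 41.0 CPM in PP2, the lowest value again in replicate 3. LINC00205 (chromosome 21) stayed between 45.4 and 58.9 CPM in all 7 libraries, and its difference from DE to PP2 was -0.18 ± 0.15. LINC02210 (chromosome 17) stood at 36.6 and 37.5 CPM in DE, 22.8 and 19.7 CPM in PP1 and 28.0 to 29.5 CPM in PP2. LINC02614 and LINC02210 are among 24 of the 215 genes with a RefSeq position that overlap an annotated protein-coding interval. The strand setting of the counting was not given, so their reads and those of the overlapping gene cannot be told apart.

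**Figure D1:**
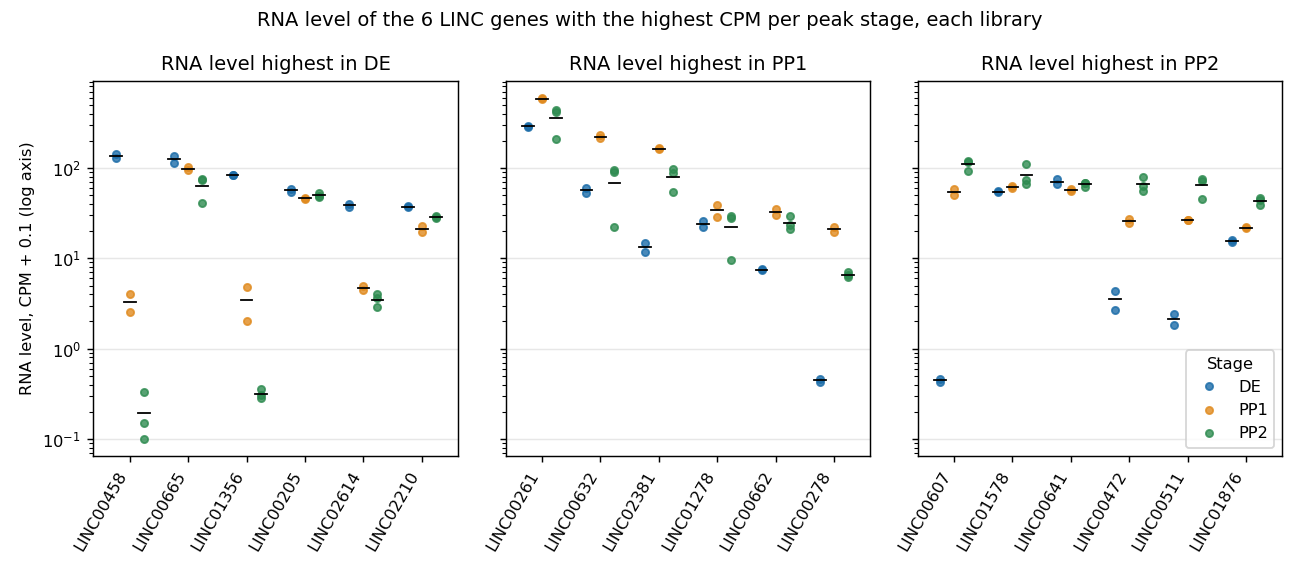
RNA level (CPM + 0.1, log axis) of the 6 genes with the highest RNA CPM among those highest in DE, PP1 and PP2, with 1 point per library coloured by stage and a bar at the stage mean. LINC00458 spans from 143 CPM in DE to 0 in PP2, LINC00607 goes the other way, and LINC00205 and LINC00641 stay level.

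Among the genes highest in PP1, LINC00261 had the highest level per kilobase of all 218 genes, 106 CPM per kb in PP1. Its RNA level was 287 and 295 CPM in DE, 595 and 582 CPM in PP1, and 439, 421 and 207 CPM in PP2. PP1 lay above both other stages without overlap, by 1.02 ± 0.34 log2 over DE, and the low PP2 value was that of replicate 3. LINC00632, the locus that also gives rise to the circular RNA CDR1-AS, lies on the X chromosome. Its level was 60.4 and 52.8 CPM in DE, 230 and 215 CPM in PP1, and 90.5, 94.2 and 22.4 CPM in PP2; counts per gene symbol do not separate linear from circular RNA. PP2 replicate 3 was below the DE libraries for LINC00632 while the other PP2 libraries were above them.

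LINC02381 (chromosome 12) had the largest difference from DE to PP1 of the 6 genes after LINC00278. It held 14.8 and 11.6 CPM in DE, 162 and 165 CPM in PP1, and 96.4, 87.3 and 54.6 CPM in PP2, a difference of 3.63 ± 0.31 from DE to PP1. LINC00662 (chromosome 19) went from 7.48 and 7.24 CPM to 34.7 and 30.2 CPM and then 21.0 to 29.1 CPM. LINC01278 (X chromosome) moved little, with 22.4 and 25.8 CPM in DE, 39.1 and 28.5 CPM in PP1 and 28.1, 29.2 and 9.49 CPM in PP2. The sixth, LINC00278, went from a mean of 0.344 CPM in DE to 20.8 CPM in PP1 and 6.49 CPM in PP2. LINC02038 (chromosome 3) had no read in either DE library, 11.0 and 7.54 CPM in PP1 and 1.47 to 1.84 CPM in PP2, so its level was at least 95.9-fold higher in PP1 than in DE, taking 3 counts over the DE group as the limit of a count of 0.

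Among the genes highest in PP2, LINC00607 (chromosome 2) was nearly absent in DE. It had 0.356 and 0.332 CPM in DE, 50.03 and 58.1 CPM in PP1 and 120.2, 118 and 93.1 CPM in PP2, a difference of 7.26 ± 0.30 and then 1.03 ± 0.19 log2. LINC00511 (chromosome 17) took the same course from 1.72 and 2.33 CPM through 26.7 and 26.7 CPM to 76.2, 71.0 and 45.2 CPM. LINC00472 (chromosome 6) went from 4.21 and 2.59 CPM through 27.1 and 24.6 CPM to 62.9, 55.5 and 78.6 CPM. LINC01876 (chromosome 2) held 15.8 and 15.1 CPM, then 22.1 and 21.6 CPM, then 43.8, 39.3 and 46.3 CPM. LINC01876 and the 3 genes before it were higher at each later stage, with no overlap between stages. The remaining 2 differed less between stages: LINC00641 stayed between 55.9 and 75.2 CPM in all 7 libraries, and LINC01578 went from 55.4 and 53.7 CPM in DE to 73.3, 66.4 and 109 CPM in PP2. LINC01578 is now named CHASERR, a conserved RNA known to limit expression of its neighbour CHD2, which stood at 306, 384 and 255 CPM at the 3 stages.

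In the RNA fit over all genes, 101 of the 218 genes passed an adjusted p under 0.05 between DE and PP1 (45 higher and 56 lower in PP1), where 24.3% of all tested genes did (12.3% higher, 12.0% lower). Between PP1 and PP2 66 passed (25 higher, 41 lower; 18.4% of all genes, 7.80% higher and 10.6% lower), and between DE and PP2 124 (63 higher, 61 lower; 33.5% of all genes, 16.4% higher and 17.1% lower). The genes were chosen by their RNA levels per stage, so nothing is read from these counts, which were 136, 112 and 157 without RNA PP2 replicate 3, and RNA differences here are descriptions without a test. The median difference of the 218 genes was -0.02 from DE to PP1, 0.05 from PP1 to PP2 and 0.14 from DE to PP2, against 0.01, 0.01 and 0.05 for all genes.

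Many LINC genes lie beside regulators of development, and their levels were set beside the nearest protein-coding gene. Of 191 genes that did not overlap a coding gene, the median distance to the nearest one was 27539 bases. LINC02084 lies 1553 bases from EOMES, the T-box factor of mesendoderm. LINC02084 had 3.62 and 2.99 CPM in DE, 0.137 and 0.156 CPM in PP1 and no read in PP2, while EOMES had means of 504, 2.85 and 0.118 CPM. LINC01980, 74875 bases from EOMES, did not follow it, with 4.99 and 3.39 CPM in DE, 3.02 and 2.50 CPM in PP1 and 2.14 to 3.55 CPM in PP2. LINC01833 lies 2503 bases from SIX3, a homeobox gene of forebrain and eye. It had 25.8 and 30.7 CPM in DE, 1.03 and 0.624 CPM in PP1 and 0.046 to 0.313 CPM in PP2, and SIX3 went from 31.0 CPM to 0.130 and 0.035 CPM. LINC01124, 770 bases from the Wnt target gene SP5, had 2.14 and 3.99 CPM in DE, 0 and 0.364 CPM in PP1 and no read in PP2, and SP5 went from 39.6 to 0.813 and 0.049 CPM. LINC02084, LINC01833 and LINC01124 and their neighbours were thus highest in DE and close to 0 in PP2. All 3 LINC genes reached 2 CPM only in DE, and LINC02084 and LINC01124 were low even there. LINC01833 and LINC01124 were named for their large Ribo falls and not by the list of developmental neighbours. These pairs therefore do not stand for LINC genes beside regulators in general.

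Genes beside regulators of the later stages went the other way. LINC02097 and LINC01152 lie 27539 and 79723 bases from SOX9, a transcription factor of pancreatic progenitors. LINC02097 had no read in DE, 0.137 and 0.416 CPM in PP1 and 6.73, 6.48 and 6.64 CPM in PP2. LINC01152 had 0.712 and 1.33 CPM, then 0.822 and 1.61 CPM, then 11.6, 10.8 and 12.1 CPM. SOX9 itself was at 1.40, 141 and 378 CPM, so it was already high in PP1, where both LINC genes were still low. PP2 replicate 3 did not differ from the other PP2 libraries in either LINC gene, whereas SOX9 varied by 240.1 CPM (SD) within PP2. LINC01798 and LINC01797, 161 and 123161 bases from the homeobox gene MEIS1, reached 4.49 to 6.52 CPM and 1.58 to 2.19 CPM in PP2, up from 0.356 and 1.46 CPM and from 0.237 and 0 CPM in DE, and MEIS1 had 21.1, 95.6 and 303 CPM.

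In 2 further pairs the courses parted. LINC00543, 5555 bases from the intestinal regulator CDX2, had no read in DE, 6.92 and 7.80 CPM in PP1 and 16.9, 16.8 and 12.7 CPM in PP2. CDX2 was highest in PP1, at 96.1 CPM, and stood at 15.5 CPM in PP2, when LINC00543 was highest. LINC00261 lies 2356 bases from FOXA2. FOXA2 stood at 246 CPM in DE, 144 CPM in PP1 and 88.1 CPM in PP2, so the LINC gene was higher in PP1 than in DE where its neighbour was lower.

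**Figure D2:**
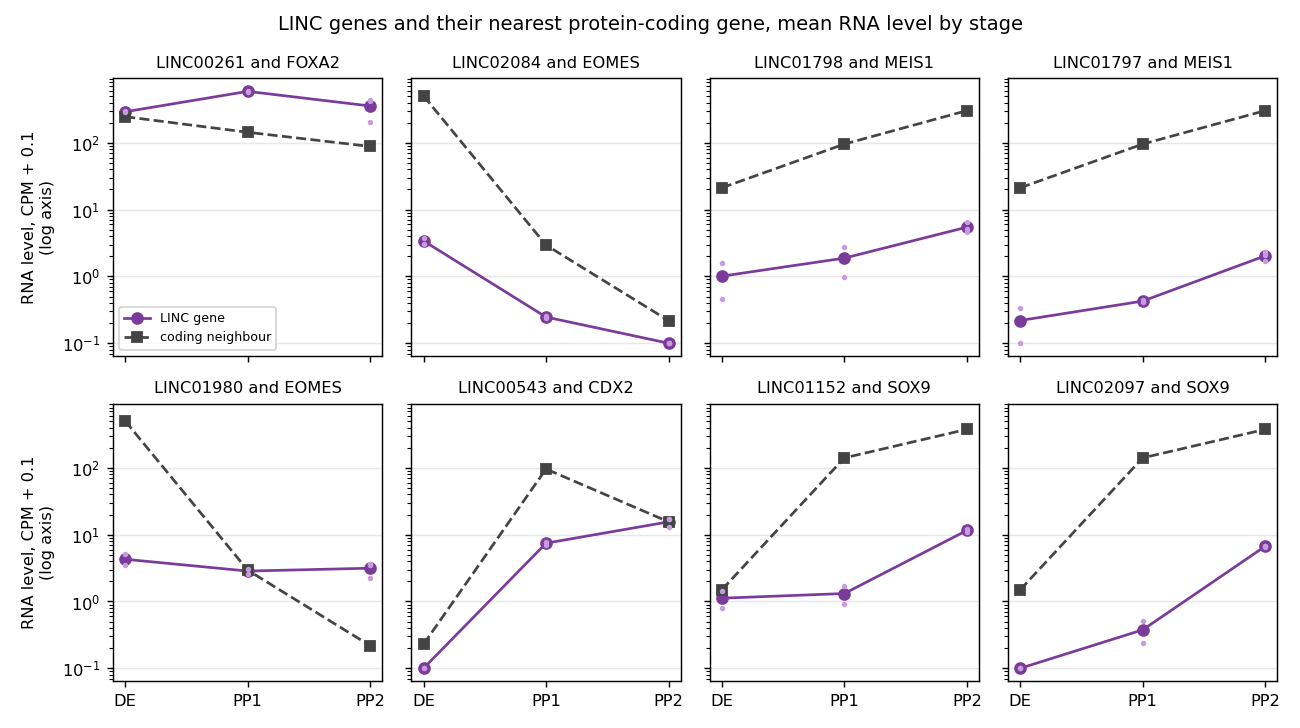
Mean RNA level (CPM + 0.1, log axis) by stage of 8 LINC genes (purple, small points for single libraries) and of their nearest protein-coding gene (grey, dashed). LINC02084, at a low level, and EOMES are both highest in DE. LINC00261 peaks in PP1 while FOXA2 is lower at each later stage. LINC00543 is highest in PP2 while CDX2 is highest in PP1.

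Over all 181 LINC genes with a neighbour tested in RNA, the correlation of log2 levels with that neighbour over the 7 RNA libraries had a median of 0.33, and 35 pairs (19.3%) exceeded 0.8. For protein-coding genes and their nearest coding neighbour the median was also 0.33 and 16.4% of 12659 pairs exceeded 0.8. For other lncRNA genes these were 0.52 and 24.98% of 1193 pairs. Among pairs that did not overlap, the medians were 0.29 for LINC genes, 0.31 for coding genes and 0.36 for other lncRNA genes. The 7 libraries share their stages and depth, so these values are descriptions. The LINC genes as a whole thus stood near coding genes in this measure, beside the close pairs described above.

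Ribo counts were not used to choose the genes, and each gene was tested in Ribo. The choice by RNA level per stage still bears on these tests. A gene could enter both the list and the Ribo test through 1 stage alone. Falls of genes with RNA mainly in DE, and rises of genes with little RNA in DE, were therefore likely beforehand. Of the 218 genes, 84 had enough Ribo counts for the test and 10 had none in any of the 7 Ribo libraries. From DE to PP1, Ribo levels of 3 of the 84 genes rose and 7 fell (10 called, where 7.53% of all tested genes were called, 4.52% higher and 3.01% lower). From PP1 to PP2, 0 rose and 4 fell (4 called, background 5.01%, 2.16% higher and 2.85% lower). The DESeq2 Wald test called 9 of the 84 there, and 10.6% of all genes. With unadjusted p under 0.05 in the edgeR fit, 2 were higher and 18 lower. The share of all genes at that level was not counted, so nothing is read from these numbers. From DE to PP2, 4 rose and 26 fell (30 called, background 27.6%, 13.1% higher and 14.5% lower). The median difference of the 84 genes was -0.94, -0.62 and -1.47 log2 in the 3 comparisons, against -0.04, 0.04 and 0.03 over all genes. With replicate 2 as the only PP2 library the median from PP1 to PP2 was 0 and that from DE to PP2 was -0.74, over 117 genes tested. Without PP2 replicate 2 they were -1.17 and -2.39, over 76 genes. Without the low-count filter, over 208 genes, the median from DE to PP1 was -0.33. These and later adjusted p-values are from edgeR's quasi-likelihood test with Benjamini-Hochberg adjustment over all 15067 genes tested in Ribo. The 3 comparisons share libraries.

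The composition of the Ribo libraries moved with these falls. LINC rows below the expression threshold, which stayed between 215 and 302 CPM of protein-coding counts in RNA, had 2840 and 3134 in Ribo DE, 1595 and 1302 in Ribo PP1, and 42.1, 690 and 198 in Ribo PP2 replicates 1, 2 and 3. The 218 genes had 2172 and 2098 in Ribo DE, 1615 and 1379 in Ribo PP1 and 417, 1427 and 471 in Ribo PP2, against 2194 to 2967 in RNA. Genes with an antisense name had 6383 and 6345 in Ribo DE and 544, 3094 and 775 in Ribo PP2. A general loss of reads over noncoding genes in Ribo thus ran alongside the falls of single LINC genes, and its part in them was not tested. Scaling the libraries on protein-coding genes alone left the 3 counts at 10, 4 and 30. That scaling leaves a drop of noncoding against coding reads in place, so nothing about this loss is read from it.

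**Figure D3:**
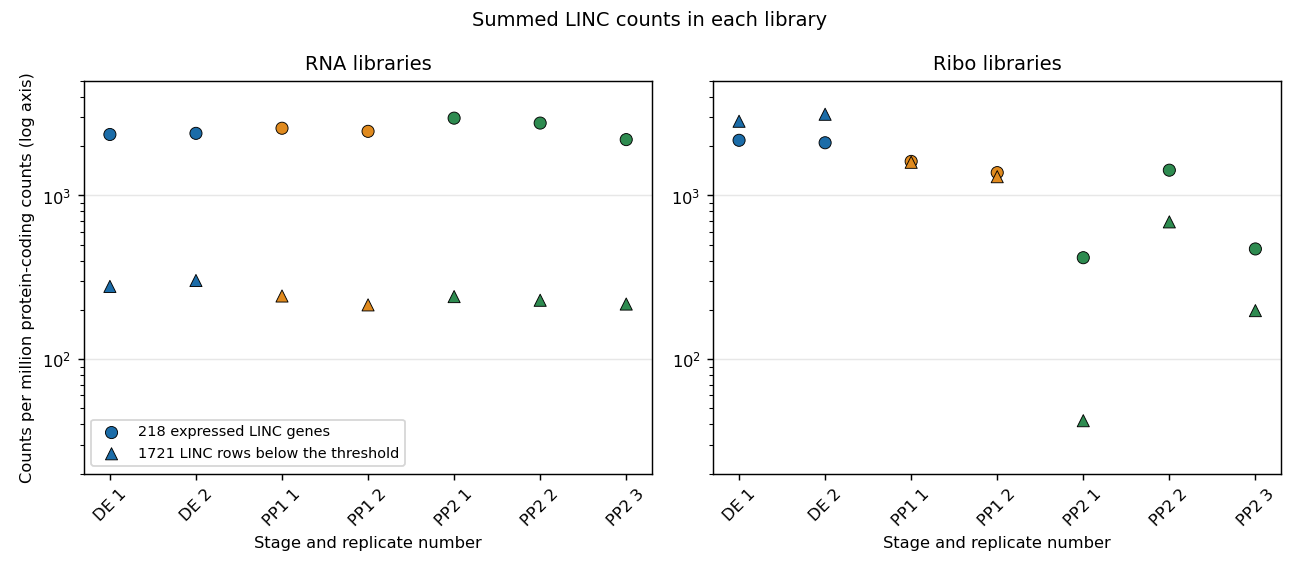
Summed counts of the 218 expressed LINC genes (circles) and of the 1721 LINC rows below the threshold (triangles) in CPM of protein-coding counts, log axis, for each RNA (left) and Ribo (right) library, coloured by stage. In RNA both sums are level, and in Ribo both are lower in PP1 and lowest in PP2 replicates 1 and 3.

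Genes whose Ribo level rose mostly had little or no RNA in DE. LINC02672 (chromosome 10) had no Ribo count in DE, 6.19 and 18.0 CPM in PP1, and 10.7, 5.05 and 8.38 CPM in PP2. Its Ribo level was at least 44.2-fold higher in PP1 (adjusted p = 0.00221) and at least 35.2-fold higher in PP2 (adjusted p = 0.0014; at least 18.8-fold with replicate 2 as the only PP2 library) than in DE. In RNA the same gene had 0.178 and 0 CPM in DE, 7.06 and 10.2 CPM in PP1 and 7.25 to 10.7 CPM in PP2, so both assays had it at or near 0 in DE. LINC02038 had no Ribo count in DE, 5.11 and 7.26 CPM in PP1 and 1.32, 0.518 and 0.506 CPM in PP2. It rose at least 22.9-fold from DE to PP1 (adjusted p = 0.0145), and PP2 was at least 3.85-fold above DE (adjusted p = 0.0404). That bound rests on PP2 replicate 1: without it the bound was 1.90-fold, and with replicate 2 as the only PP2 library it was 1.93-fold and the call was lost (adjusted p = 0.168). LINC00607 had 4.08 and 0 CPM in Ribo DE, 30.1 and 17.7 CPM in PP1 and 9.30, 54.8 and 22.1 CPM in PP2. It passed from DE to PP2 (3.79 ± 1.06, adjusted p = 0.024) and missed from DE to PP1 (3.54 ± 1.10, adjusted p = 0.0784). Its DE to PP2 difference was 4.77 ± 0.69 with replicate 2 as the only PP2 library.

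LINC02381 was the fourth gene that rose, and had the smallest error. Its Ribo level was 4.96 and 3.44 CPM in DE, 64.8 and 72.9 CPM in PP1 and 48.1, 40.8 and 32.4 CPM in PP2. The rise was 4.03 ± 0.41 from DE to PP1 (adjusted p = 3.05e-04) and 3.26 ± 0.39 from DE to PP2 (adjusted p = 2.80e-04), beside RNA differences of 3.63 ± 0.31 and 2.58 ± 0.29. All of the Ribo libraries of PP1 and PP2 were above those of DE for this gene. With replicate 2 as the only PP2 library the DE to PP2 rise was 3.32 ± 0.38. LINC00632 went in the same direction in PP1, from 10.1 and 11.8 CPM to 72.4 and 57.2 CPM, but did not pass (2.57 ± 0.78, adjusted p = 0.0746).

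The largest falls in Ribo were those of genes whose RNA was found mainly in DE. LINC00458 had 13.1 and 14.7 CPM in Ribo DE (74 and 81 counts), 1.35 and 0.581 CPM in PP1 and no count in the 3 PP2 libraries. It fell by 3.82 ± 0.83 from DE to PP1 (adjusted p = 0.0251) and was at least 282-fold lower in PP2 than in DE (adjusted p = 2.35e-04). PP2 replicate 1, the deepest Ribo library, sets most of that bound, which was 99.8-fold without it and 35.8-fold with replicate 2 as the only PP2 library. LINC01356 had 18.97 and 19.02 CPM in DE, 0.269 and 0.290 CPM in PP1 and 0.102 to 0.144 CPM in PP2. With 2 counts left in PP1 its level was 68.0 times lower than in DE (95% counting interval 18.6 to 565; adjusted p = 8.86e-04), and in PP2 it had fallen by 7.19 ± 0.62 (adjusted p = 3.73e-05; a difference of -6.91 ± 0.98 with replicate 2 as the only PP2 library). These 2 genes also had the highest RNA levels per kilobase of all DE-highest genes.

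The 3 genes described above beside SIX3, EOMES and SP5 also fell. LINC01833, next to SIX3, had 9.04 and 11.0 CPM in Ribo DE and no count in any PP1 or PP2 library. It was at least 23.95-fold lower in PP1 (adjusted p = 0.0147) and at least 204-fold lower in PP2 (adjusted p = 0.00102). LINC02084, next to EOMES, had 3.72 and 7.97 CPM in DE, 0 and 0.290 CPM in PP1 and no count in PP2, where it was at least 118-fold lower (adjusted p = 0.00267). LINC01124, next to SP5, had 2.48 and 2.35 CPM in DE and no count later, at least 49.1-fold lower in PP2 (adjusted p = 0.0111). Farther from any coding gene, LINC01467 and LINC02474 fell too. LINC01467 (5.50 and 5.98 CPM in DE, no count later) was at least 13.7-fold lower in PP1 (adjusted p = 0.042) and at least 116-fold lower in PP2 (adjusted p = 0.00312). LINC02474 (3.55 and 4.53 CPM in DE) had 1 count left in PP1 and none in PP2, at least 81.9-fold lower (adjusted p = 0.00427). In RNA all 5 were likewise highest in DE, so their falls in Ribo were likely beforehand. Without PP2 replicates 1 and 3 the PP2 bounds were 25.8-fold for LINC01833, 14.99-fold for LINC02084, 6.23-fold for LINC01124, 14.8-fold for LINC01467 and 10.4-fold for LINC02474. LINC01124 and LINC02474 did not pass with replicate 2 as the only PP2 library.

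Of the 26 genes that fell from DE to PP2 in Ribo, 20 had a negative RNA difference and the rest a positive one. An RNA difference within 0.5 log2 of 0 was found for 4 of the 26, which lay on both sides of 0. LINC01355 (chromosome 1) differed most between the assays. Its RNA level was 14.2 and 10.6 CPM in DE, 27.8 and 21.2 CPM in PP1 and 24.5, 23.7 and 38.5 CPM in PP2, higher in every later library than in either DE library. Its Ribo level was 24.6 and 44.6 CPM in DE, 5.92 and 5.23 CPM in PP1 and 0.711, 1.55 and 0.722 CPM in PP2. It fell by 2.63 ± 0.53 from DE to PP1 (adjusted p = 0.0128), by 2.57 ± 0.51 from PP1 to PP2 (adjusted p = 0.0191) and by 5.20 ± 0.50 from DE to PP2 (adjusted p = 7.68e-05). With replicate 2 as the only PP2 library the last fall was 4.41 ± 0.63 on the log2 scale and passed (adjusted p = 3.62e-05), and the fall from PP1 to PP2 did not (adjusted p = 0.116). The difference between the assays itself was not tested.

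LINC02609 behaved similarly, with RNA between 3.17 and 5.12 CPM in all 7 libraries. Its Ribo level went from 15.4 and 17.7 CPM in DE through 4.84 and 9.87 CPM in PP1 to 0.610, 1.17 and 1.73 CPM in PP2, a fall of 3.85 ± 0.58 from DE to PP2 (adjusted p = 0.00109; a difference of -3.75 ± 0.72 with replicate 2 as the only PP2 library). LINC00888, now named SNHG33 as a small nucleolar RNA host gene, had 57.6 and 46.4 CPM in Ribo DE, 2.42 and 8.42 CPM in PP1 and 2.13, 8.41 and 2.89 CPM in PP2. It fell by 3.27 ± 0.73 from DE to PP1 (adjusted p = 0.0207), more than the RNA difference of -1.88 ± 0.37, though that gap was not tested. LINC02387 fell from PP1 to PP2 by 4.62 ± 1.02 (adjusted p = 0.0287), from 2.15 and 5.23 CPM to 0.152, 0 and 0.217 CPM. LINC00665 and LINC01578 fell from DE to PP2 by 1.46 ± 0.37 (adjusted p = 0.0152) and 1.75 ± 0.50 (adjusted p = 0.0266), and neither passed with replicate 2 as the only PP2 library (adjusted p = 0.125 and 0.254).

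**Figure D4:**
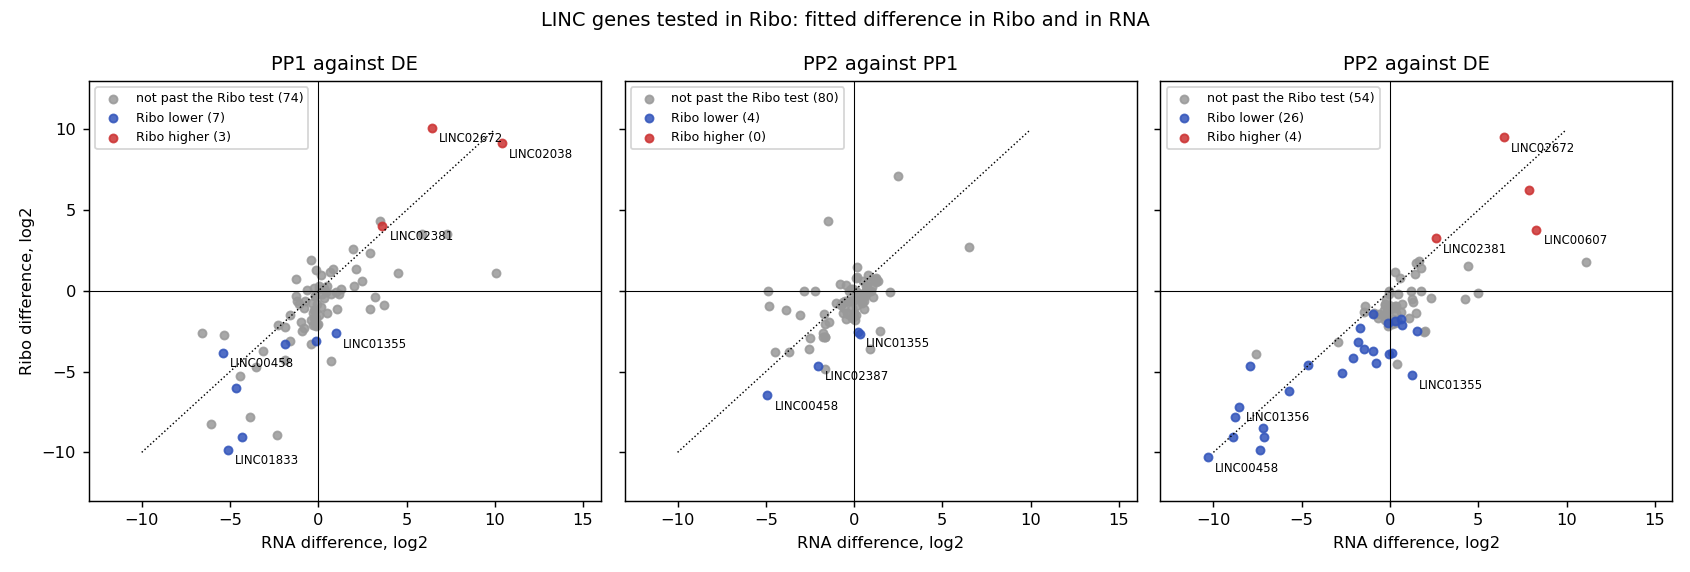
Fitted log2 difference in Ribo (vertical) against that in RNA (horizontal) for the 84 genes tested in Ribo, 1 panel per comparison, with genes past the Ribo test in colour and the dotted line marking equal differences. LINC01355 lies right of 0 in RNA and below 0 in Ribo in all 3 panels, and the largest values belong to genes with few or no counts in a stage and depend on the prior count of the fit.

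The calls depended on single libraries. Of the 44 calls in the 3 comparisons, 15 passed under every alternative run for them. These were LINC01356, LINC02381 and LINC02672 from DE to PP1, and LINC00458, LINC00888, LINC01355, LINC01356, LINC01467, LINC01833, LINC02084, LINC02361, LINC02381, LINC02600, LINC02609 and LINC02672 from DE to PP2. From DE to PP1 the count was 5 and 3 without Ribo DE replicates 1 and 2, 3 and 4 without Ribo PP1 replicates 1 and 2, and 19 and 22 without Ribo PP2 replicates 1 and 2. From PP1 to PP2 it was 0 without either Ribo PP1 library or Ribo PP2 replicate 3, and 22 without Ribo PP2 replicate 2. From DE to PP2 it was 17 and 19 without Ribo DE replicates 1 and 2, 48 without Ribo PP2 replicate 2 and 17 without Ribo PP2 replicate 3. The share of all genes called moved with these counts. From DE to PP1 it was 2.43% to 2.98% without a DE or PP1 library and 11.0% and 15.1% without PP2 replicates 1 and 2. From PP1 to PP2 it was 0.334% and 0.533% without PP1 replicates 1 and 2, 23.6% without PP2 replicate 2 and 1.33% without PP2 replicate 3. From DE to PP2 it was 10.9% and 10.7% without DE replicates 1 and 2, 46.4% without PP2 replicate 2 and 14.4% without PP2 replicate 3. With replicate 2 as the only PP2 library, and the lone library taken to vary like the other stages, all 10, 2 of 4 and 16 of 30 calls remained, each in the same direction.

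The stage of highest RNA and the Ribo calls are set side by side here as a description only. The groups were made from RNA levels by stage, and a gene could enter the Ribo test through its DE libraries alone. A fall of DE-highest genes was therefore likely beforehand. The genes of the background were not split by stage of highest RNA, so nothing about LINC genes is read from the contrast with it. Of the 33 DE-highest genes tested in Ribo, 0 rose and 18 fell (54.5%) from DE to PP2, where 13.1% of all genes were higher and 14.5% lower. From DE to PP1, 0 rose and 5 fell (15.2%), where 4.52% of all were higher and 3.01% lower. Of the 19 PP1-highest genes, 2 rose (10.5%) and 0 fell from DE to PP1. Of the 32 PP2-highest genes, 2 rose (6.25%) and 5 fell (15.6%) from DE to PP2, beside the same 13.1% and 14.5% of all genes. The DE-highest genes' median Ribo difference from DE to PP2 was -3.18 log2 in the fit of all libraries. It was -2.30 log2 with replicate 2 as the only PP2 library. In the fit of all libraries the PP2-highest genes' median Ribo difference from DE to PP2 was -1.01 log2 beside a median RNA difference of 1.10, and it was -0.39 with replicate 2 as the only PP2 library.

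Footprints per RNA were described as the ratio of mean Ribo to mean RNA CPM of a stage (0.1 CPM added to each), and placed as a percentile among protein-coding genes of the same stage with a raw RNA level of at least 2 CPM. The median LINC gene stood at percentile 27.7 in DE (157 genes), 12.9 in PP1 (141 genes) and 6.52 in PP2 (156 genes). Taken one library at a time, the median was 32.6 and 22.3 for the DE libraries, 20.9 and 9.77 for those of PP1, and 4.71, 14.8 and 6.29 for PP2 replicates 1, 2 and 3. The DE and PP2 libraries did not overlap, while the higher PP1 library lay close to the lower DE library and the lower PP1 library was below PP2 replicate 2. Antisense genes moved alike, with medians of 39.5, 12.1 and 7.01. The number of LINC genes above the coding median was 51, 28 and 10, and 42, 44 and 69 were below percentile 5. These numbers use the mean of all Ribo libraries of a stage and were not recounted with PP2 replicate 2 alone. No footprint was counted for 23, 15 and 9 of the genes at the 3 stages. Coding genes moved alike, with none counted for 155 of 12514, 101 of 12430 and 67 of 12553, and Ribo depth also differed between the stages.

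**Figure D5:**
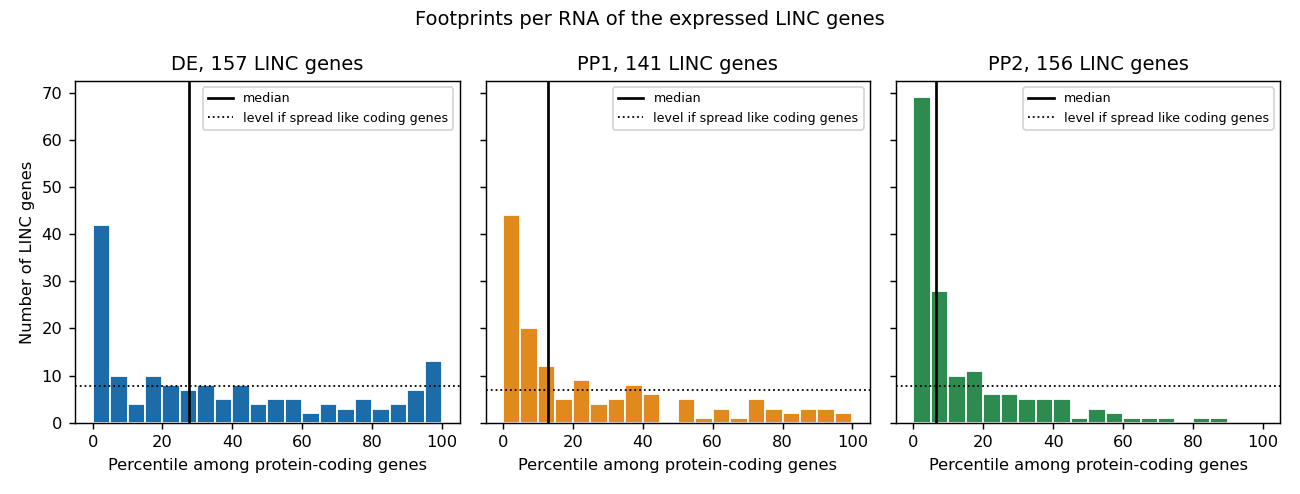
Number of LINC genes by percentile of footprints per RNA among protein-coding genes (5-point bins) in DE, PP1 and PP2, with the median as a solid line and the level of an even spread as a dotted line. The medians are 27.7, 12.9 and 6.52, and the bin below percentile 5 holds 42, 44 and 69 genes.

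Single genes stood far apart on this scale. LINC02672 stood at percentile 94.7 in PP1 and 80.0 in PP2. LINC02381 stood at 38.7, 51.3 and 52.8, and LINC00479 (chromosome 21) at 99.2, 88.6 and 55.8. LINC00479 had Ribo levels of 17.0 and 28.4 CPM in DE, 43.05 and 27.0 CPM in PP1 and 4.47, 34.7 and 12.7 CPM in PP2, with no difference past the test. At the other end, LINC00641, with RNA above 55 CPM throughout, had 1.596 and 1.45 CPM of Ribo in DE, 2.42 and 2.61 CPM in PP1 and 0.076 to 0.506 CPM in PP2, which put it at percentiles 0.78, 1.71 and 0.05. LINC00472 went from percentile 47.2 in DE, where its RNA was low, to 0.72 and 0.43 when its RNA was high. LINC00261 had the highest Ribo level of all 218 genes in CPM at each stage, with 91.3 and 114 CPM in DE, 96.1 and 97.6 CPM in PP1 and 57.0, 70.7 and 34.5 CPM in PP2. Its percentile was 43.2, 10.8 and 9.28, and none of its Ribo differences passed (adjusted p = 0.928, 0.196 and 0.0778).

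Long noncoding RNAs outside the LINC names showed how wide this scale is. GAS5 and SNHG1, host genes of small nucleolar RNAs, stood above percentile 99 at each stage. NORAD and KCNQ1OT1 stood at most at percentile 1.57 and 5.87. MALAT1, a nuclear RNA, stood at 97.6, 68.9 and 45.5. The expressed LINC genes span nearly the whole range between these.

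RefSeq gives 1 of the 218 genes as protein-coding today. LINC00514 is now GREP1, which encodes a glycine-rich extracellular protein. Its RNA level was 0.712 and 1.66 CPM in DE, 1.71 and 1.46 CPM in PP1 and 5.48, 3.98 and 3.83 CPM in PP2. Its Ribo level went against this, with 3.19 and 3.62 CPM in DE, 3.50 and 2.90 CPM in PP1 and 0.051, 1.17 and 0.650 CPM in PP2, and its difference from DE to PP2 did not pass (-2.57 ± 1.06, adjusted p = 0.0925). In PP2, where its raw RNA level passed 2 CPM, it stood at percentile 9.84.

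The threshold itself divided genes with nearly equal levels. Just inside it were LINC02163 and LINC01168, with raw means of 2.06 and 2.02 CPM in DE, and LINC00884, with 2.04 CPM in PP1. Just outside were LINC01191 and LINC00513, with 1.99 and 1.96 CPM in PP1, and LINC00663, with 1.96 CPM in PP2.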

How the data were processed

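The authors deposited 1 table of raw read counts per gene symbol for 14 libraries, per the file headers. Per the submitters' processing notes, the tools were cutadapt 1.18, Bowtie 1.2, STAR 2.7.1a and featureCounts 1.6.4, with build hg38. Strand setting, annotation release and the region counted for Ribo reads: not given in the sources used here. Groups came from the sample titles. The members and gene lists were chosen with earlier results of these data known.

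From these counts, each assay was fitted over its 3 stages in edgeR 4.0.16 (R 4.3.3): filterByExpr, TMM scaling, quasi-likelihood F test, Benjamini-Hochberg adjustment over all tested genes, threshold 0.05. The test was checked on simulated data. A stage without counts was given a bound from 3 counts over the group, and 1 to 3 counts a ratio with an exact 95% counting interval; both cover counting error only. Total counts were 15107847 to 21009065 (RNA) and 4710335 to 24186949 (Ribo). Gene positions, neighbours and promoters came from RefSeq (GRCh38.p14); 193 genes matched by symbol, 22 by an older symbol and 3 not at all. Genes were named by rule: the 6 highest in RNA per peak stage, the 8 largest Ribo changes per comparison, the 6 highest in Ribo, genes now protein-coding, the 3 on each side of the threshold, and neighbours of listed developmental genes. LINC00571, LINC01091 and LINC00843 were named after the motif search, and LINC02361 and LINC02600 because their calls held under every alternative. Alternatives were DESeq2 1.42.0 size factors and Wald test, protein-coding library sizes, no low-count filter, a replicate block, leaving out libraries, and other CPM thresholds. Without RNA PP2 replicate 3 was added after seeing the data.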

Additional observations from a re-analysis of the deposited data

How the results depend on the processing

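Of the 44 Ribo calls of single genes, 0 reversed under the alternatives that gave a value for them. In Ribo, the count of called genes from DE to PP1 (10) was 17 without the low-count filter, 18 with the DESeq2 Wald test, 25 with PP2 replicate 2 as the only PP2 library and 3 to 22 leaving out 1 library at a time. From PP1 to PP2 (4) it was 7, 9 and 0 to 22 under the same alternatives, where 5.04%, 10.6% and 0.334% to 23.6% of all genes were called. From DE to PP2 (30) it was 17 to 48 leaving out 1 library. It was 34 under both the no-filter and the DESeq2 Wald alternatives, where 14.6% and 31.1% of all genes were called. Fewer samples in the fit, or fewer PP2 libraries, are part of several of these alternatives; beyond that the cause was not tested. In RNA, leaving out 1 library moved the counts of 101, 66 and 124 to 59 to 136, 19 to 112 and 89 to 157; the highest of each was without PP2 replicate 3. The 218 genes were 344 at a threshold of 1 CPM, 122 at 5 CPM, 169 with the mean over all RNA libraries and 216 without RNA PP2 replicate 3. The median percentile of footprints per RNA ranged over 22.3 to 32.6 (DE), 9.77 to 20.9 (PP1) and 5.48 to 8.19 (PP2) leaving out 1 Ribo library, and was 21.7, 10.04 and 3.93 over genes with RNA of at least 5 CPM.

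Same-numbered libraries did not deviate together (correlations between -0.31 and 0.27), so the numbers were not taken as pairs. With a replicate block the Ribo counts were 6, 0 and 14, and the RNA count from PP1 to PP2 was 108.

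The low-count filter left 134 of the 218 genes untested in Ribo. Without it 208 were tested, and 10, 4 and 26 of the calls were shared with those reported.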
